A study of Homo sapiens with 12 samples.

Results

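The comparison is between H3K27me3 in T24 cells treated with GSK-126 and H3K27me3 in T24 cells treated with fenretinide. Its members are the 2 chromatin immunoprecipitation (ChIP-seq) libraries that carry those labels, of 12 samples in the series. T24 is an established human bladder cancer cell line, taken from the labels, since no expression data were analysed here. The GSK-126 library came from cells given 5 µM GSK-126 for 72 h and the fenretinide library from cells given 5 µM fenretinide for 72 h. A library of DMSO-treated cells (vehicle) and one of cells given both compounds at 5 µM each for 72 h (combination) are printed beside them. All 4 were fixed in 1% formaldehyde for 10 min. Each condition had 1 library, so no difference here has a replicate check, and every value compares libraries and not conditions.

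H3K27me3, trimethylation of lysine 27 of histone H3, is the mark that Polycomb repressive complex 2 lays down through its catalytic subunit EZH2, and it covers silenced developmental genes and wide gene-poor stretches of chromatin. GSK-126 is an EZH2 inhibitor that competes with the methyl donor S-adenosylmethionine. Fenretinide is a synthetic retinoid (4-hydroxyphenyl retinamide). Retinoids act on gene expression through the nuclear receptors RAR and RXR, and fenretinide is also known for effects on sphingolipid metabolism and cell death.

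The values are fragment counts in 273664 intervals, each the union of peaks called in the 4 libraries, and together they held 16156194 fragments with GSK-126 and 18928836 with fenretinide. The ratio used throughout is the share of the GSK-126 library's interval fragments divided by that of the fenretinide library, and square brackets hold its 95% counting interval (exact binomial, counting error only). A gene or interval is called higher with GSK-126 at a ratio of 2 or more, and lower at 0.5 or less, where the counting interval excludes 1. No label names a spike-in, so the ratio describes how each library's fragments were distributed and not the amount of the mark per cell. DESeq2 size factors raised every log2 ratio by 0.12, and scaling to the least covered 25% of intervals lowered every log2 ratio by 0.63 (-0.63). Those intervals held 885256 GSK-126 and 669799 fenretinide fragments. Where only counts follow each other, they are those of GSK-126, fenretinide, vehicle and the combination. Directions stated below are those of library shares. Those of GSK-126 against fenretinide that turn under another scaling are named, and ratios over vehicle were not recomputed under another scaling.

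The 6 promoters printed next were chosen after their values were seen, as those at the ends of the ranking that had a deposited peak in 1 of the 2 libraries only. Each is the 250 bases before the gene start, 5′ to 3′ on the strand of the gene, from RefSeq (GRCh38.p14), with CpG dinucleotides in capitals. CELSR3 (an atypical cadherin of planar cell polarity) lies at chr3:48662887-48663136 on the minus strand, AJAP1 (an adherens junction protein) at chr1:4654359-4654608 on the plus strand and ZNF793 (a zinc-finger gene) at chr19:37506689-37506938 on the plus strand. These 3 carried a peak with GSK-126 and none with fenretinide.
CELSR3: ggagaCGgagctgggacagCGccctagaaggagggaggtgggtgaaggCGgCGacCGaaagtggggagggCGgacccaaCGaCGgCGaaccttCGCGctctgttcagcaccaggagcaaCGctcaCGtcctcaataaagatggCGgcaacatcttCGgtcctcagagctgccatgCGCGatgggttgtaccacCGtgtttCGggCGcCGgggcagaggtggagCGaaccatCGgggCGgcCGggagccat
AJAP1: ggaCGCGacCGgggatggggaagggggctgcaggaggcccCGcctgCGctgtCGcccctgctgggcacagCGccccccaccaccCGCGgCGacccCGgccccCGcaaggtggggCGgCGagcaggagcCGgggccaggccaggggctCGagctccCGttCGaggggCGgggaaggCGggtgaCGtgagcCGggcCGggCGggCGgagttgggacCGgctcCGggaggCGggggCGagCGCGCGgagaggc
ZNF793: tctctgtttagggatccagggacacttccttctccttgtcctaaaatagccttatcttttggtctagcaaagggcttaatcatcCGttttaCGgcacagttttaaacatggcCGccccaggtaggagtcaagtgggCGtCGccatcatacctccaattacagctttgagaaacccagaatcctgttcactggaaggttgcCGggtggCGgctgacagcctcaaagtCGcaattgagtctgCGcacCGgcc

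CREB3L3 (an endoplasmic reticulum-bound transcription factor of liver and gut) lies at chr19:4153381-4153630 on the plus strand, R3HDML at chr20:44336793-44337042 on the plus strand and UNC13A (a presynaptic vesicle-priming protein) at chr19:17688355-17688604 on the minus strand. These 3 carried a peak with fenretinide and with vehicle, and none with GSK-126.
CREB3L3: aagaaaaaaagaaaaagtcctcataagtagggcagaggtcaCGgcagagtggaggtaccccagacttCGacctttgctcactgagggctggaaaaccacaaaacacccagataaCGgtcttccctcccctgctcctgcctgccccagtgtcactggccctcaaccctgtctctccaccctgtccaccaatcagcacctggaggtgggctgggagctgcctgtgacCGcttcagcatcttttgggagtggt
R3HDML: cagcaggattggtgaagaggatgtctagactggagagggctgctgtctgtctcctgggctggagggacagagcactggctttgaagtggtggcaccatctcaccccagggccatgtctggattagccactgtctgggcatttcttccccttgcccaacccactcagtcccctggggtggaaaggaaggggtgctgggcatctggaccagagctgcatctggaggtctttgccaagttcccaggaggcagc
UNC13A: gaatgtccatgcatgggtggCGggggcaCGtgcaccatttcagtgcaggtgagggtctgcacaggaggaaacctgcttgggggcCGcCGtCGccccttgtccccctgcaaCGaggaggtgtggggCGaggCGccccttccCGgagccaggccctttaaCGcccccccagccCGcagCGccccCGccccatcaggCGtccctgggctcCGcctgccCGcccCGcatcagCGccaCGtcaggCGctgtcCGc

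CpG number differed widely among the 6. The 250 bases held 25 CpG in CELSR3, 32 in AJAP1 and 10 in ZNF793, against 4 in CREB3L3, 0 in R3HDML and 21 in UNC13A. Around CELSR3 the intervals held 232 fragments with GSK-126 and 14 with fenretinide, against 11 with vehicle and 112 with both compounds, a ratio of 19.4 [11.3 to 36.1]. Around AJAP1 the counts were 146, 9, 15 and 92 in the same order, a ratio of 19.01 [9.74 to 42.4], and around ZNF793 they were 4077, 451, 290 and 3057, a ratio of 10.6 [9.61 to 11.7]. In each of these genes the fenretinide library was nearer to vehicle and the combination nearer to GSK-126. CREB3L3, whose intervals are shared with SIRT6, had 176 fragments with GSK-126 and 810 with fenretinide, against 924 with vehicle and 233 with both compounds, a ratio of 0.255 [0.215 to 0.300]. R3HDML had 173 fragments with GSK-126 and 795 with fenretinide, against 764 with vehicle and 248 with both compounds, a ratio of 0.255 [0.215 to 0.301]. UNC13A, with 123, 581, 615 and 160, had a ratio of 0.248 [0.202 to 0.302]. The same pairing of libraries was seen here with the direction turned.

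Across genes, fenretinide had a larger share of its fragments near gene starts than GSK-126 did. A gene's value is the sum over the intervals that hold a peak whose nearest gene start is that gene, within 10 kb. Of 14652 genes with at least 50 fragments in the 2 libraries, 1644 (11.2%) were higher with GSK-126 and 4455 (30.4%) were lower, and the median log2 ratio was -0.62. With scaling to the least covered intervals the split was 1008 higher and 8961 lower, and each gene list described here had more members lower than is given for it. Across intervals, where most of the length lies far from genes, the split was nearly even. Of 162442 intervals with at least 20 fragments, 33578 (20.7%) were higher with GSK-126 and 30182 (18.6%) were lower, with a median log2 ratio of -0.10, and under that scaling 15727 were higher and 64338 lower. The interval median rose to 0.0171 with DESeq2 scaling.

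The intervals higher with GSK-126 held 25.5% of the GSK-126 fragments and 7.64% of the fenretinide fragments, with 6.18% in the vehicle library and 21.6% in the combination. Those lower with GSK-126 held 7.14% of GSK-126 fragments and 18.2% of fenretinide fragments, with 20.4% for vehicle and 9.23% for the combination. The intervals higher with GSK-126 covered 223 Mb. The 98682 tested intervals that were neither held 64.2% of GSK-126 and 71.0% of fenretinide fragments.

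The difference changed with distance from a gene start, being most negative at 2 to 10 kb and rising from there. Within 2 kb of a start the median log2 ratio of intervals was -0.58, from 2 to 10 kb it was -0.72, and from 10 to 50 kb it was -0.46. It was -0.07 from 50 to 200 kb, 0.59 from 200 kb to 1 Mb, and 1.28 for the 1301 intervals more than 1 Mb away. Of those 1301 gene-desert intervals, 776 were higher with GSK-126 and 17 lower. Of the 16025 intervals at 2 to 10 kb, 1894 were higher and 5663 lower. The class from 50 to 200 kb turned to 0.0529 with DESeq2 scaling and 0.00205 with TMM scaling, and the class from 200 kb to 1 Mb turned to -0.0398 with scaling to the least covered intervals. The order of the classes does not depend on the scaling, which moves all of them alike.

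**Figure D1:**
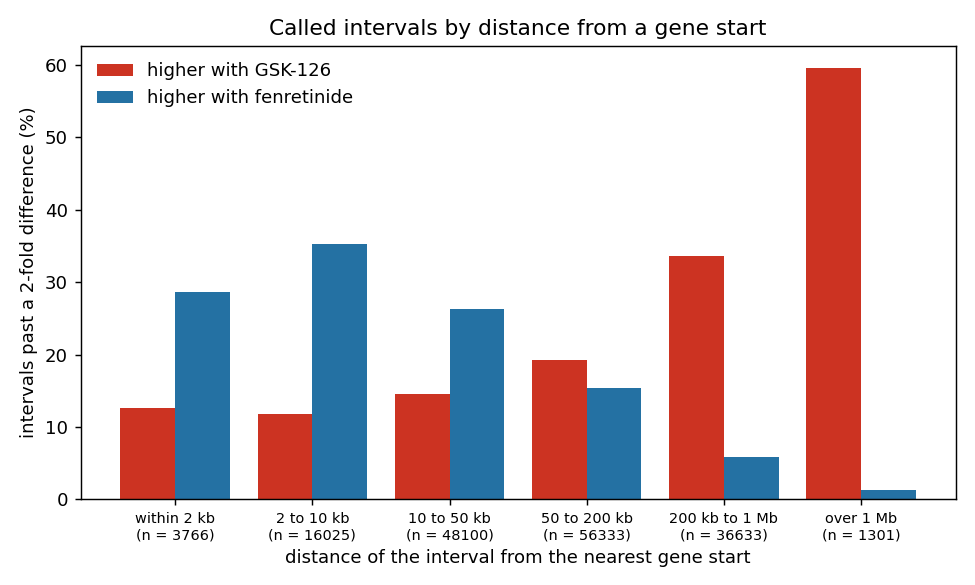
Percentage of tested intervals (vertical axis) past a 2-fold difference in each direction, by distance of the interval from the nearest gene start (horizontal axis), with the number of intervals in each class, from 1 library per treatment. The share higher with GSK-126 goes from 12.6% within 2 kb to 59.6% beyond 1 Mb, and the share higher with fenretinide from 28.7% to 1.31%, with the class of 2 to 10 kb past the nearest one at 11.8% and 35.3%.

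In 1 Mb windows of the genome the median ratio fell with the number of protein-coding genes they hold. Of 2891 windows, 369 (12.8%) were higher with GSK-126 and 62 (2.14%) lower. The 351 windows with no protein-coding gene had a median log2 ratio of 0.95, with 161 higher and 0 lower. The median was 0.28 for the 650 windows with 1 to 2 genes, -0.12 with 3 to 5, -0.32 with 6 to 10, -0.47 with 11 to 20 and -0.55 for the 204 windows with over 20. The windows without genes stayed above 0 with scaling to the least covered intervals (0.32), while the class of 1 to 2 genes fell below it (-0.35), and the class of 3 to 5 genes reached 0.0017 with DESeq2 scaling. Windows without genes held 14.1% of GSK-126 fragments, 8.51% of fenretinide fragments, 7.10% of vehicle fragments and 13.3% of combination fragments.

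Windows with 5 or more ZNF genes did not follow that order. ZNF genes encode zinc-finger proteins, many of them KRAB repressors of transposable elements that sit in tandem clusters, most of them on chromosome 19. The 29 windows had a median log2 ratio of 1.57, with 18 higher with GSK-126 and 0 lower. Among windows with over 20 genes, the median was 1.20 in the 19 with 5 or more ZNF genes and -0.60 in the 185 with fewer. The window with the highest ratio was chr12:133000001-134000000, which holds 6 ZNF genes among its 7 protein-coding genes. It had 9691 fragments with GSK-126 and 919 with fenretinide, against 630 with vehicle and 7009 with both compounds, a ratio of 12.4 [11.5 to 13.2]. Windows of chromosome 19 stood at both ends of the ranking. The one at chr19:36000001-37000000, with 13 ZNF genes among 25, had 21041, 3115, 2072 and 16501 fragments in the same order, a ratio of 7.91 [7.62 to 8.22]. The one at chr19:4000001-5000000, with 29 protein-coding genes and 0 ZNF genes, had 1676, 5290, 5691 and 1881, a ratio of 0.371 [0.351 to 0.392].

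**Figure D2:**
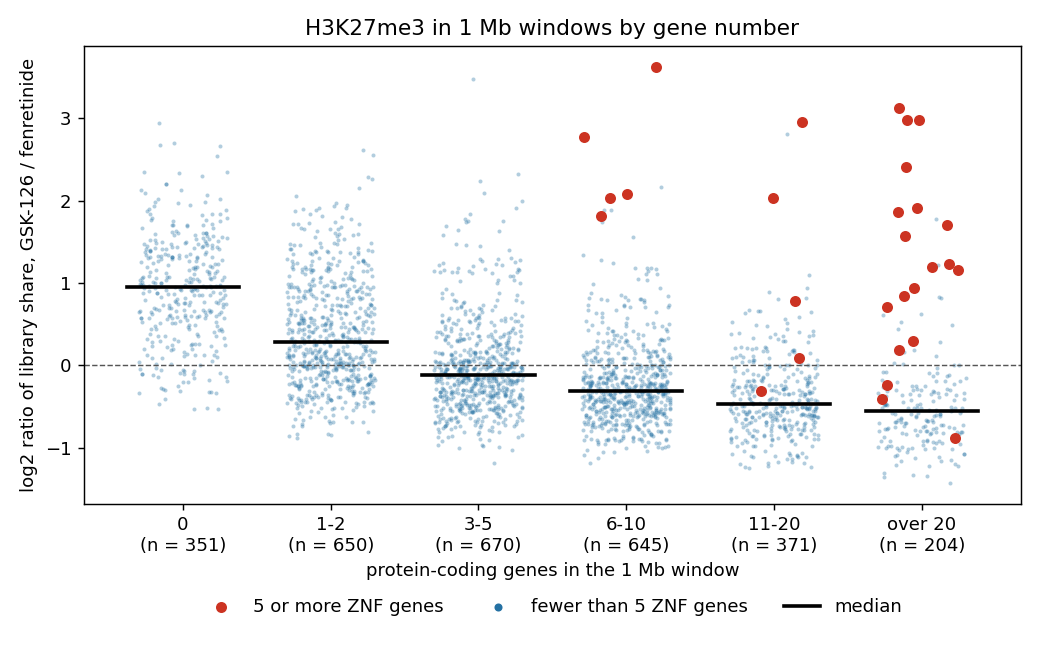
Log2 ratio of library share, GSK-126 over fenretinide (vertical axis), of 2891 windows of 1 Mb, grouped by their number of protein-coding genes (horizontal axis), with 1 point per window and a black line at each class median. Medians fall from 0.95 without genes to -0.55 with over 20, and red points, the 29 windows with 5 or more ZNF genes, have a median of 1.57.

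Whole chromosomes differed too. Chromosome 21 held 222626 GSK-126 and 192945 fenretinide fragments, a ratio of 1.35 [1.34 to 1.36], and the X chromosome had a ratio of 1.24 [1.23 to 1.24]. Chromosome 17, with 361985 and 566804 fragments, had a ratio of 0.748 [0.745 to 0.751], and chromosome 22 one of 0.809 [0.805 to 0.814]. With scaling to the least covered intervals every chromosome stood below 1, with chromosome 21 at 0.873 and chromosome 17 at 0.483. Chromosome 19 as a whole, with 499039 and 504791 fragments, had a ratio of 1.16 [1.15 to 1.16], while its intervals split into 502 higher with GSK-126 and 659 lower, with 688 neither. Unplaced and unlocalized contigs held 1.52% of GSK-126 and 0.452% of fenretinide fragments, with 0.342% for vehicle and 1.19% for the combination. Of their 591 tested intervals 338 were higher with GSK-126 and 57 lower. How fragments that align to several places were counted is not given in the sources used here, so values of contigs and of tandem gene copies are uncertain.

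Genes of the ZNF family were mostly higher with GSK-126. Of 352 ZNF genes tested, 241 (68.5%) were higher with GSK-126 and 33 (9.38%) lower, against 11.2% and 30.4% over all genes. The median log2 ratio was 2.01 (1.38 with scaling to the least covered intervals). On chromosome 19, 173 of 197 were higher and 5 lower, with a median of 2.69, while the 768 other genes tested on that chromosome had a median of -0.89 with 331 lower. On other chromosomes 68 of 155 ZNF genes were higher and 28 lower, with a median of 0.67. On chromosome 16, 8 of 16 were lower and 1 higher, with a median of -0.999. The family supplied 241 of the 1644 genes higher with GSK-126, and without it 1403 were higher and 4422 lower.

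Called genes with at least 100 fragments were ranked by the bound of the counting interval nearest to 1, and not by the ratio itself. Of the 12 at the high end, 6 were ZNF genes. ZNF891 (chr12:133082139-133129440, intron) held 1474 fragments with GSK-126 and 65 with fenretinide, against 27 with vehicle and 1003 with both compounds, a ratio of 26.6 [20.7 to 34.6]. ZNF616 (largest interval chr19:52142342-52168595) held 731, 35, 29 and 584 in the same order, a ratio of 24.5 [17.4 to 35.4]. ZNF124 on chromosome 1 held 754, 34, 17 and 481, a ratio of 25.98 [18.4 to 37.8]. In all 3, vehicle and fenretinide stood at the low end and GSK-126 was highest. ZNF716 on chromosome 7 held 1094, 162, 56 and 850 fragments, a ratio of 7.91 [6.70 to 9.39]. Fenretinide was above vehicle at ZNF716, by 2.62 times [1.92 to 3.61] in library share, and at ZNF891, by 2.18 times [1.37 to 3.55]. ZNF7 (727, 27, 16 and 457) had a ratio of 31.5 [21.5 to 48.2], and ZNF134 (258, 6, 10 and 152) one of 50.4 [22.8 to 139]. ZNF members at the other end were ZNF830, with 11 fragments with GSK-126 and 75 with fenretinide, against 70 with vehicle and 21 with both compounds, a ratio of 0.172 [0.0823 to 0.325], and ZNF579, with 14, 72, 83 and 16, a ratio of 0.228 [0.119 to 0.407]. These 2 lay below the median of all genes and on the other side of 1 from most of the family.

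The other 6 were LOC284412, LOC100287497, LOC100289333, DUX4L4, RNA5S6 and RNA5S9. LOC284412, in a chromosome 19 stretch next to the interval with the highest bound (chr19:37292394-37295141, with 2211, 59, 47 and 1259 fragments, a ratio of 43.9 [33.9 to 57.9]), held 2423 fragments with GSK-126 and 155 with fenretinide, against 87 with vehicle and 1585 with both compounds, a ratio of 18.3 [15.6 to 21.7]. DUX4L4, a copy of the DUX4-like repeat at the end of chromosome 4, held 105, 2, 0 and 49 fragments, a ratio of 61.5 [16.6 to 515]. The 5S ribosomal RNA genes, which lie in a tandem array on chromosome 1, were all higher among the 6 tested, with a median log2 ratio of 4.80. RNA5S6 held 759, 40, 21 and 351 fragments, a ratio of 22.2 [16.2 to 31.4], and RNA5S9 held 237, 6, 4 and 135, a ratio of 46.3 [20.9 to 127]. RNA28S5, the large-subunit ribosomal RNA gene on an unplaced contig, chosen after its values were seen, held 869, 294, 36 and 392 fragments, a ratio of 3.46 [3.03 to 3.97]. There the fenretinide library stood well above vehicle and the combination stood nearer to fenretinide than to GSK-126, unlike in the 5S genes.

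**Figure D3:**
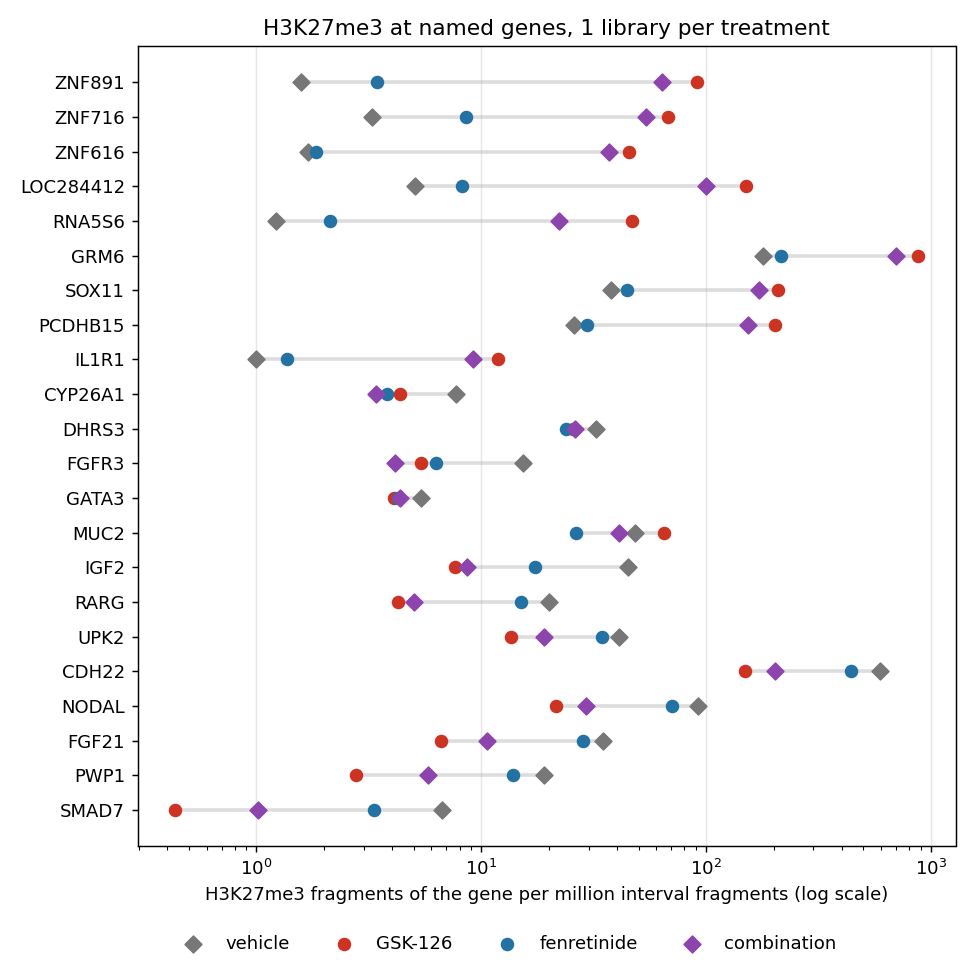
H3K27me3 fragments per 1000000 interval fragments of the library (horizontal axis, log scale) at 22 named genes (vertical axis) in the vehicle (grey), GSK-126 (red), fenretinide (blue) and combination (purple) libraries, 1 library each. From ZNF891 to IL1R1 GSK-126 lies far to the right of fenretinide, at CYP26A1, DHRS3, FGFR3 and GATA3 the 2 libraries are close, and from IGF2 to SMAD7 GSK-126 lies to the left.

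Clustered protocadherins, neuronal cell-surface proteins encoded in tandem arrays on chromosome 5, were another family with a median above 0. Of 47 tested, 31 (66.0%) were higher with GSK-126 and 0 lower, against 11.2% and 30.4% over all genes. Their median log2 ratio was 1.43 (0.80 with scaling to the least covered intervals). They share 22 intervals, so they are not 47 separate measurements. PCDHB15 held 3266 fragments with GSK-126 and 559 with fenretinide, against 441 with vehicle and 2423 with both compounds, a ratio of 6.85 [6.26 to 7.501]. PCDHGA12 held 227, 28, 27 and 148, a ratio of 9.50 [6.40 to 14.6]. Other cadherins were split, with 6 of 31 (19.4%) higher and 5 (16.1%) lower, against 11.2% and 30.4% over all genes. With scaling to the least covered intervals 3 were higher and 13 lower, and their median of 0.02 turned to -0.61. CDH7 (363, 110, 90 and 290 fragments, ratio 3.87 [3.12 to 4.83]) was higher, and CDH22 (2403, 8354, 10153 and 3202, ratio 0.337 [0.322 to 0.353]) was lower across the intervals near its start.

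Transcription factors of development, a classic set of Polycomb targets, fell on both sides. Of 102 tested, 14 were higher with GSK-126 and 18 lower (9 and 53 with scaling to the least covered intervals), with a median log2 ratio of -0.38. These are 13.7% higher and 17.6% lower, against 11.2% and 30.4% over all genes, so they were called lower less often than genes in general. SOX11, a neural factor, held 3369 fragments with GSK-126 and 840 with fenretinide, against 648 with vehicle and 2704 with both compounds, a ratio of 4.70 [4.36 to 5.07], and SOX3 held 604, 95, 88 and 396, a ratio of 7.45 [5.99 to 9.35]. ALX4, a homeobox factor of limb and skull, held 409, 1390, 1769 and 486, a ratio of 0.345 [0.308 to 0.385]. HAND1, a factor of heart and trophoblast, held 435, 1416, 1795 and 558, a ratio of 0.360 [0.323 to 0.401]. HOX genes, which pattern the body axis, stood on 1 side, with 6 of 9 tested lower (66.7%), 0 higher and a median of -1.08. The share lower over all genes was 30.4%. With DESeq2 scaling 3 of the 9 HOX genes were lower. HOXD13 held 44, 136, 225 and 77 fragments, a ratio of 0.379 [0.263 to 0.536], and HOXC12 and HOXC13 share 1 interval with 269, 668, 888 and 322.

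Genes of WNT, BMP and growth factor signalling, not all of them secreted factors, were lower with GSK-126 or neither. Of 52 tested, 27 (51.9%, against 30.4% over all genes) were lower and 0 higher, with a median log2 ratio of -1.02. NODAL, a TGF-beta family ligand of the early embryo, held 347 fragments with GSK-126 and 1340 with fenretinide, against 1569 with vehicle and 461 with both compounds, a ratio of 0.303 [0.269 to 0.342]. FGF21, a metabolic hormone, held 107, 534, 595 and 167, a ratio of 0.235 [0.189 to 0.289]. SMAD7, the inhibitory SMAD of TGF-beta signalling, held 7, 63, 115 and 16, a ratio of 0.130 [0.0503 to 0.284]. At SMAD7 the fenretinide library also lay below vehicle, which it did not do to that extent at NODAL or FGF21.

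**Figure D4:**
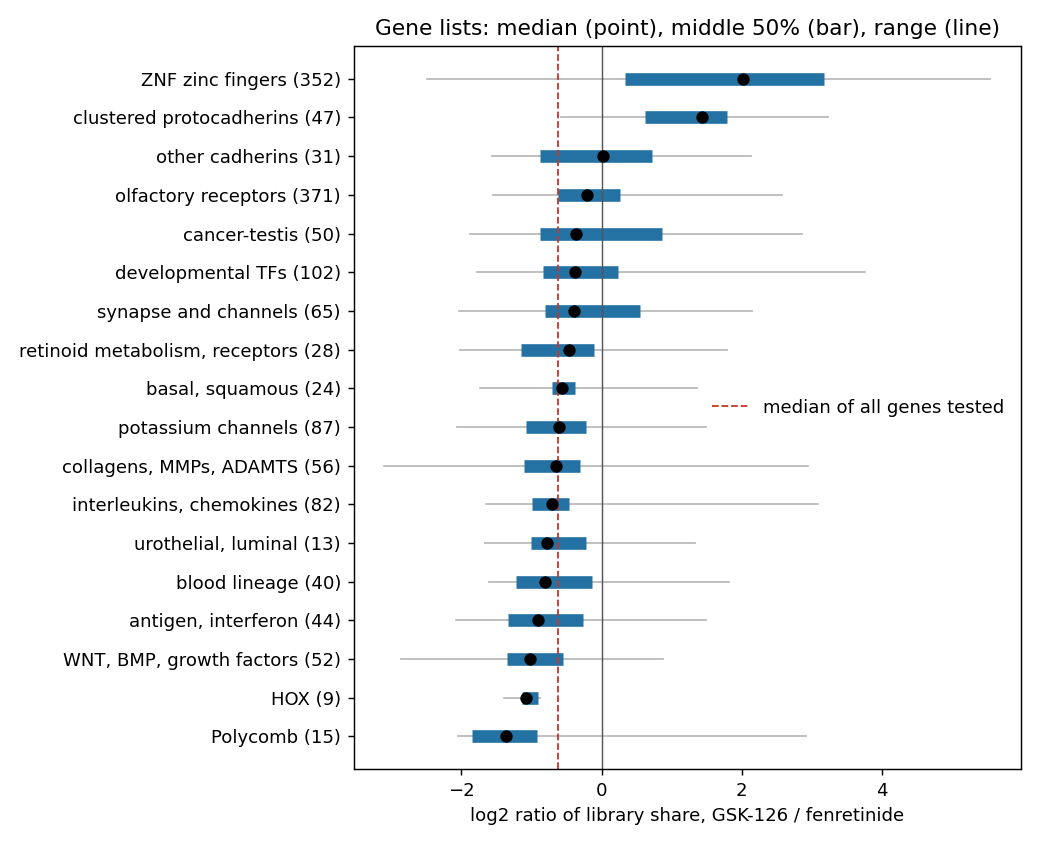
Log2 ratio of library share, GSK-126 over fenretinide (horizontal axis), for 18 gene lists picked by hand, with the number of genes tested (vertical axis), with the median as a point, the middle 50% as a bar and the range as a line. Among these 18, ZNF genes (2.01) and clustered protocadherins (1.43) have the highest medians and HOX (-1.08) and Polycomb genes (-1.36) the lowest, while the 5 housekeeping genes (-1.44) are not drawn, and the dashed line marks the median of all genes (-0.62).

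Genes for the Polycomb machinery itself mostly held a smaller share of the library with GSK-126 than with fenretinide. Of 15 tested, 10 were lower (66.7%, against 30.4% over all genes), 4 neither and 1 higher, with a median log2 ratio of -1.36. EED, the PRC2 subunit that binds the methylated histone tail, held 20 fragments with GSK-126 and 95 with fenretinide, against 115 with vehicle and 29 with both compounds, a ratio of 0.247 [0.144 to 0.403]. CBX2, a chromodomain reader subunit of PRC1, held 78, 307, 406 and 92, a ratio of 0.298 [0.229 to 0.383]. KDM6B, a demethylase of H3K27, held 47, 178, 206 and 53, a ratio of 0.309 [0.219 to 0.429]. The 1 higher gene was SCMH1, a PRC1-associated protein, with 189, 29, 15 and 162 fragments and a ratio of 7.64 [5.15 to 11.7] in 1 intronic interval. EZH2, the target of GSK-126, had no interval within 10 kb of its start. Of 40 genes in this list 24 had an interval.

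Genes of retinoid uptake, conversion and response handle retinoids in the cell or carry out their effects. Of 28 tested, 8 (28.6%) were lower with GSK-126 and 2 higher, with a median log2 ratio of -0.47, both near the values over all genes. Among receptors, RARG held 69 fragments with GSK-126 and 283 with fenretinide, against 344 with vehicle and 79 with both compounds, a ratio of 0.286 [0.216 to 0.373], in an interval shared with MFSD5. RARB, a receptor that is itself induced by retinoic acid, held 50, 109, 100 and 62, a ratio of 0.537 [0.377 to 0.758], which was neither. RARA had no interval within 10 kb. Of binding and storage proteins, CRABP1, which carries retinoic acid in the cell, held 92, 316, 363 and 132, a ratio of 0.341 [0.267 to 0.432]. LRAT, which esterifies retinol, held 26, 75, 64 and 30, a ratio of 0.406 [0.249 to 0.642]. Of enzymes that make retinoic acid, ALDH1A1 held 251, 682, 583 and 320, a ratio of 0.431 [0.372 to 0.499], and ALDH1A2 held 560 with GSK-126 and 740 with fenretinide, a ratio of 0.887 [0.793 to 0.991].

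Other retinoid genes named here, which are hydroxylases, a retinol transporter and retinal reductases, lay on both sides of 1. CYP26A1, the retinoic acid hydroxylase that is a standard target of RAR, held 70 fragments with GSK-126 and 72 with fenretinide, against 132 with vehicle and 54 with both compounds, a ratio of 1.14 [0.808 to 1.61]. All 3 treated libraries lay below vehicle, and GSK-126 and fenretinide could not be told apart at this depth. Its neighbour CYP26C1, a related hydroxylase on the same stretch of chromosome 10, held 45, 15, 27 and 29, a ratio of 3.51 [1.92 to 6.79], with fenretinide lowest and GSK-126 highest. STRA6, the retinol transporter of the cell surface, held 23, 48, 92 and 19, a ratio of 0.561 [0.326 to 0.941], which was neither, with fenretinide between vehicle and GSK-126. DHRS3, a retinal reductase, held 414, 452, 552 and 414, a ratio of 1.07 [0.937 to 1.23]. The side of 1 on which CYP26A1 and DHRS3 lie turns with scaling to the least covered intervals. RDH12, another retinal reductase, held 144, 54, 54 and 119, a ratio of 3.12 [2.27 to 4.35].

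Of ceramide and sphingolipid genes, the other pathway fenretinide is known for, 5 of 16 tested (31.25%) were lower with GSK-126 and 0 higher, with a median log2 ratio of -0.68. Both lie close to the values over all genes, 30.4% and -0.62. DEGS1, the dihydroceramide desaturase, held 53 fragments with GSK-126 and 166 with fenretinide, against 133 with vehicle and 64 with both compounds, a ratio of 0.374 [0.269 to 0.512]. SMPD1, the acid sphingomyelinase, held 21, 104, 104 and 35, a ratio of 0.237 [0.141 to 0.381], and ACER1, a ceramidase of epidermis, held 159, 659, 666 and 210, a ratio of 0.283 [0.236 to 0.337]. The share with fenretinide over that with vehicle was 1.13 [0.894 to 1.43] at DEGS1, 0.905 [0.683 to 1.20] at SMPD1 and 0.896 [0.803 to 0.999] at ACER1.

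Urothelial and luminal genes were called lower about as often as genes in general. Of 13 urothelial and luminal genes tested, 4 (30.8%) were lower and 1 higher, with a median log2 ratio of -0.77, against 30.4% lower over all genes. Uroplakins are the plaque proteins of the urothelial surface. UPK2 held 218 fragments with GSK-126 and 649 with fenretinide, against 702 with vehicle and 299 with both compounds, a ratio of 0.394 [0.336 to 0.460], and UPK1A held 39, 146, 169 and 37, a ratio of 0.313 [0.214 to 0.448]. UPK1B was on the other side of 1, with 332, 280, 225 and 303 and a ratio of 1.39 [1.18 to 1.63], which was neither and turned below 1 with scaling to the least covered intervals. FGFR3, a receptor often mutated in luminal bladder tumours, held 87, 119, 263 and 65, a ratio of 0.857 [0.642 to 1.14]. GATA3, a luminal transcription factor, held 66, 81, 92 and 69, a ratio of 0.955 [0.679 to 1.34], which turned above 1 with DESeq2 scaling. At FGFR3 both single-compound libraries lay below vehicle, as they did at CYP26A1, DHRS3, IGF2 and other genes named here. Basal and squamous genes had 3 of 24 (12.5%) lower and 1 higher, with a median of -0.57.

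Genes of death, stress and growth were mostly lower or neither. BIK, a pro-apoptotic BH3-only protein, held 25 fragments with GSK-126 and 109 with fenretinide, against 144 with vehicle and 16 with both compounds, a ratio of 0.269 [0.167 to 0.418]. ATF3, a stress-induced transcription factor, held 24, 83, 165 and 25, a ratio of 0.339 [0.206 to 0.539]. IGF2, the imprinted growth factor, held 123, 328, 766 and 136, a ratio of 0.439 [0.354 to 0.542]. IGF2 and its antisense gene share that 1 interval, so they cannot be told apart. NXPH4, a neurexophilin, held 29, 85, 226 and 27, a ratio of 0.400 [0.253 to 0.616]. At ATF3, IGF2 and NXPH4 fenretinide lay far below vehicle and GSK-126 lay lower still. In the lists, 4 of 11 apoptosis genes tested (36.4%) were lower and 1 (9.09%) higher, near the 30.4% and 11.2% over all genes. For the unfolded protein response, 5 of 10 genes tested (50.0%) were lower and 0 higher. KLF4 was under the minimum, with 6, 24, 49 and 10 fragments, and CDKN1A and CDKN2A had no interval within 10 kb.

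Immune genes were given by 2 lists. Of 44 genes of antigen presentation and interferon response 19 (43.2%) were lower and 2 higher, with a median log2 ratio of -0.91, against 30.4% lower over all genes. ULBP2, a stress ligand of natural killer cells, held 71 fragments with GSK-126 and 246 with fenretinide, against 313 with vehicle and 93 with both compounds, a ratio of 0.338 [0.256 to 0.442]. IFI6, an interferon-induced mitochondrial protein, went the other way with 266, 111, 135 and 165, a ratio of 2.81 [2.24 to 3.54], which was under 2 with scaling to the least covered intervals. Of 82 interleukin and chemokine genes 21 (25.6%, under the share over all genes) were lower and 3 higher, with a median of -0.71. IL1R1, the receptor of interleukin 1, was among the higher ones with 191, 26, 17 and 145, a ratio of 8.61 [5.70 to 13.5]. IL33, an alarmin, held 147, 38, 36 and 128, a ratio of 4.53 [3.15 to 6.66]. CCL22, a chemokine, held 123, 453, 536 and 199, a ratio of 0.318 [0.258 to 0.389].

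Olfactory receptor, cancer-testis and synapse genes had medians above that of all genes. Of 371 olfactory receptor genes, 53 (14.3%) were higher and 31 (8.36%) lower, against 11.2% and 30.4% over all genes, with a median log2 ratio of -0.21. With scaling to the least covered intervals, 22 were higher and 149 lower. OR2M7, in the chromosome 1 cluster, held 249 fragments with GSK-126 and 53 with fenretinide, against 42 with vehicle and 228 with both compounds, a ratio of 5.50 [4.08 to 7.55]. On chromosome 19, OR1M1, OR7G1 and OR7G2 share intervals with 451, 1548, 1581 and 623 fragments, a ratio of 0.341 [0.307 to 0.379]. Cancer-testis genes, silent in most adult tissues outside the germline, had 12 of 50 higher and 12 lower (6 and 25 with scaling to the least covered intervals) and a median of -0.36. MAGEC1 held 71, 11, 9 and 41, a ratio of 7.56 [3.98 to 15.8], and GAGE1 held 68, 293, 236 and 79, a ratio of 0.272 [0.206 to 0.355], both on the X chromosome. Synapse and channel genes had 9 of 65 (13.8%) higher and 11 (16.9%) lower (4 and 33 with that scaling), with a median of -0.40. GRM6, a glutamate receptor, held 14180, 4059, 3061 and 11087, a ratio of 4.09 [3.95 to 4.24], but its interval also covers ZFP2, ZNF354C, ZNF454 and ZNF879.

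Genes at the low end of the ranking by counting bound mostly held few fragments with GSK-126. GNL2, a nucleolar GTPase, held 8 fragments with GSK-126 and 95 with fenretinide, against 68 with vehicle and 20 with both compounds, a ratio of 0.0987 [0.0414 to 0.202]. PNP, a purine nucleoside phosphorylase, and TMEM55B share 1 interval (chr14:20463695-20468549) with 11, 108, 102 and 25 fragments, a ratio of 0.119 [0.0578 to 0.222]. PWP1, a WD-repeat protein of ribosome production, held 45, 261, 326 and 92, a ratio of 0.202 [0.144 to 0.278], and SLC29A2, a nucleoside transporter, held 78, 416, 433 and 110, a ratio of 0.220 [0.170 to 0.280]. Fenretinide was below vehicle at PWP1, with a ratio of shares of 0.725 [0.613 to 0.855], and at SLC29A2, with 0.870 [0.758 to 0.997], and at GNL2 and PNP that counting interval included 1. ATG14, an autophagy protein, held 19, 133, 136 and 36, a ratio of 0.167 [0.0977 to 0.272]. Housekeeping genes had 3 of 5 tested lower (60.0%, against 30.4% over all genes). Among them was TFRC, the transferrin receptor, with 14, 59, 54 and 22 fragments and a ratio of 0.278 [0.143 to 0.504]. COL12A1, a fibril-associated collagen with too few fragments for that ranking, held 6, 65, 60 and 15, a ratio of 0.108 [0.0383 to 0.248].

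The vehicle and combination libraries show on which side each difference lies. Their nearness is measured in log2 library share, and the genes were chosen by the GSK-126 and fenretinide values themselves. Vehicle was nearer to fenretinide for 1612 of the 1644 genes higher with GSK-126 and for 4430 of the 4455 lower ones. In the higher genes the median vehicle share lay 0.26 below fenretinide (-0.26) and 2.103 below GSK-126 (-2.103). In the lower genes it lay 0.25 above fenretinide and 1.61 above GSK-126, all on the log2 scale. The combination was nearer to GSK-126 for 1590 of the 1644 higher genes and 4091 of the 4455 lower genes. Its median lay 0.31 below GSK-126 (-0.31) and 1.56 above fenretinide in the higher genes, and 0.31 above GSK-126 and 1.04 below fenretinide (-1.04) in the lower genes.

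A set of 57 of the 6099 called genes had vehicle nearer to GSK-126 than to fenretinide, by the values alone and without regard to counting error. MUC2, the gel-forming mucin of the gut, had the most fragments among them, with 1046 for GSK-126 and 498 for fenretinide, against 829 for vehicle and 647 for both compounds, a ratio of 2.46 [2.21 to 2.74]. Fenretinide and the combination were the 2 low libraries there. GSK-126 was above vehicle as well, with a ratio of shares of 1.34 [1.22 to 1.47], against 0.544 [0.486 to 0.608] for fenretinide over vehicle. F10, coagulation factor X, held 486, 281, 371 and 335, a ratio of 2.03 [1.75 to 2.36], and the long non-coding RNA gene HCP5 held 424, 245, 319 and 308, a ratio of 2.03 [1.73 to 2.38]. Vehicle lay about midway at both. At F10 the ratio over vehicle was 1.39 [1.21 to 1.59] for GSK-126 and 0.686 [0.585 to 0.803] for fenretinide. At HCP5 it was 1.41 [1.22 to 1.64] and 0.695 [0.586 to 0.824]. With scaling to the least covered intervals MUC2, F10 and HCP5 were under a ratio of 2. CYP26C1 belonged to the same set. NT5E, the ectonucleotidase CD73, held 59, 22, 41 and 60, a ratio of 3.14 [1.90 to 5.39], with fenretinide alone at the low end. In the next 3 genes, which were lower with GSK-126, fenretinide was the high library. SLC2A3, a glucose transporter, held 14, 56, 18 and 26, a ratio of 0.293 [0.151 to 0.533], and MAP2K6, a kinase that activates p38, held 13, 60, 27 and 20, a ratio of 0.254 [0.128 to 0.468]. TRIM49C held 92, 216, 136 and 81, a ratio of 0.499 [0.387 to 0.640], which was above 0.5 with DESeq2 and TMM scaling. Vehicle was about midway there too, with ratios over vehicle of 0.717 [0.545 to 0.942] for GSK-126 and 1.44 [1.15 to 1.79] for fenretinide. Apart from CYP26C1, these genes were chosen after their values were seen. CYP26C1, with 45 and 15, and SLC2A3, MAP2K6 and NT5E rest on under 100 fragments in the 2 libraries.

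The deposited peak lists, called library by library, can be set side by side as well. The GSK-126 list held 217751 peaks with a median width of 1643 bp and the fenretinide list 234815 with a median of 1458 bp. Peaks of 50 kb or more numbered 269 with GSK-126 and 503 with fenretinide, against 591 with vehicle and 241 with the combination. Of GSK-126 peaks 70.0% overlapped a fenretinide peak by at least 1 base, and 61.6% of fenretinide peaks overlapped a GSK-126 peak. For peaks annotated to promoters the shares were 80.0% of GSK-126 peaks and 55.8% of fenretinide peaks, and for those at transcript ends 76.3% and 48.1%. Peaks without a partner were narrow, with a median of 1040 bp in the GSK-126 list and 923 bp in the fenretinide list. Since the lists differ in length and depth, the shares describe the lists and not a gain or loss.

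Peaks were also compared by promoter sequence. Of 34961 RefSeq promoter windows of 300 bases (250 before and 50 after the gene start), 16.0% lay under a GSK-126 peak and 20.1% under a fenretinide peak. In the 10340 windows with under 5 CpG the shares were 19.95% [19.2 to 20.7] with GSK-126 and 29.2% [28.3 to 30.1] with fenretinide (binomial intervals over windows). In the 14420 windows with 20 or more CpG they were 12.6% [12.05 to 13.1] and 11.4% [10.9 to 11.9]. In the 10201 windows between them the shares were 16.7% and 23.05%. So GSK-126 lay below fenretinide at promoters with fewer CpG, and at CpG-rich ones it lay above by 1.18 percentage points (0.354 with peaks scored 20 or more). Vehicle had 29.3% and 14.7% in these 2 classes and the combination 24.9% and 13.2%. The 3270 windows with a fenretinide peak only had a median of 4 CpG, the 1841 with a GSK-126 peak only a median of 7, and all windows a median of 14. Of 647 ZNF promoter windows, 85 had a GSK-126 peak only and 10 a fenretinide peak only, against 1841 and 3270 of all 34961 windows.

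**Figure D5:**
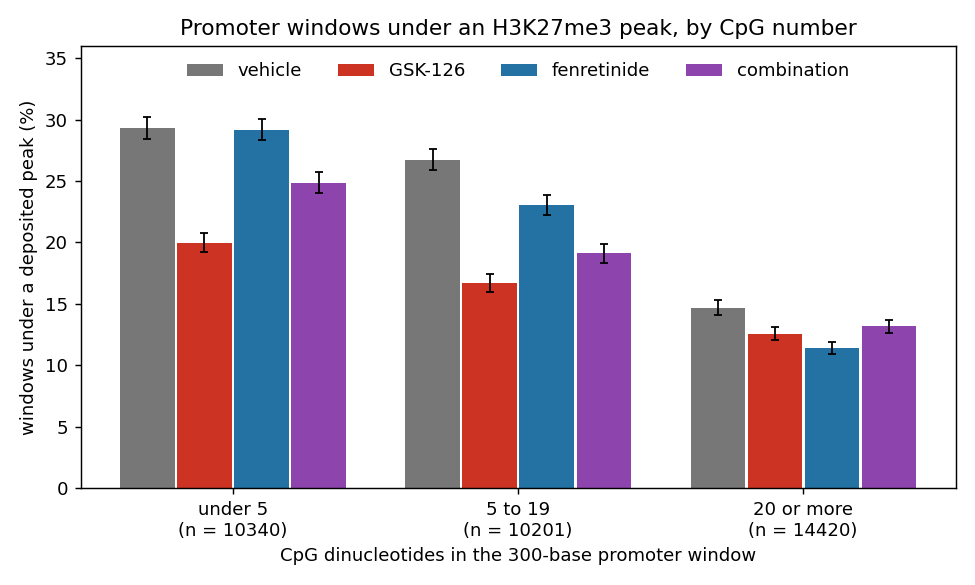
Percentage of RefSeq promoter windows under a deposited H3K27me3 peak (vertical axis) by number of CpG dinucleotides in the window (horizontal axis) in the 4 libraries, 1 each, with 95% exact binomial intervals over windows as error bars. With under 5 CpG, GSK-126 (19.95%) is the lowest library and fenretinide (29.2%) is level with vehicle (29.3%), and with 20 or more CpG the 4 libraries lie between 11.4% and 14.7%.

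The hexamer AGGTCA, the core letters of the elements that retinoid receptors bind, was searched on both strands of the 300-base windows. It was present in 13.8% of all windows, 17.5% of those with a fenretinide peak only and 16.8% of those with a GSK-126 peak only. It was present in 19.95% of windows with under 5 CpG and 7.79% of those with 20 or more, so its share moved with CpG number, and the part of CpG number in the difference between classes was not tested. Of the 6 promoters printed above, the CREB3L3 window is the one that holds it.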

How the data were processed

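Raw fragment counts per consensus interval were deposited as 1 table, made with featureCounts 2.0.1 per the file headers (read pairs, no strand, minimum overlap fraction 0.2, with a fragment counted for each interval that it touches). A broad peak list for each library, annotated with HOMER per the file headers, was deposited too, and its peak score has no stated scale. MACS2 2.1.0 and GRCh38 are named in the submitters' processing notes. The aligner and the control for peak calling are not given in the sources used here, and input and RNA samples were not analysed here. Coordinates are 1-based.

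Genes sum the intervals that hold a peak with the gene's start within 10 kb, which gave 18981 genes, and 2005 intervals counted for more than 1 gene. The minimum was 50 fragments for a gene and 20 for an interval in the 2 libraries, and log2 ratios used a pseudocount of 0.5. No significance test was run, since there was 1 library a side, and intervals are exact Clopper-Pearson intervals that cover counting error only. Interval fragments totalled 16156194 with GSK-126 and 18928836 with fenretinide, and 17133107 with vehicle and 15812933 with both compounds. Named genes were the 12 highest and 12 lowest called genes with 100 or more fragments, ranked by the counting bound nearest to 1. To these came up to 3 called genes at each end of each list, by ratio, and a fixed set. Those named outside this rule are lists' members or marked as chosen after their values were seen. The members and lists were chosen with earlier results of these data known. The script that applies the calling rule was checked on simulated counts. Alternatives were DESeq2 1.42.0 and edgeR 4.0.16 scaling factors (used for scaling alone), scaling to the 25% of intervals with the fewest fragments per kb, other distances, minimums, thresholds and pseudocounts, and 5 chosen after seeing the data. Software was R 4.3.3, matplotlib 3.10.9, scipy 1.17.1, pandas 2.3.3, numpy 2.4.6 and Python 3.11.15.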

Additional observations from a re-analysis of the deposited data

How the results depend on the processing

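No paired analysis was possible because each condition had 1 library, and leaving out a library would leave no comparison. Depth limits genes with few fragments, and the choice of scaling limits every count of calls.

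Genes higher with GSK-126 numbered 1644 and genes lower 4455. They were 1008 and 8961 with background scaling, 715 and 2077 with gene starts within 2 kb, 942 and 2604 with a minimum of 200 fragments, and 716 and 220 at a ratio of 4. Without a distance limit 3007 were higher, and at a ratio of 1.5, 7444 were lower. Intervals higher and lower were 15727 and 64338 with background scaling, 21402 and 17091 with a minimum of 50, and 11095 and 5010 at a ratio of 4. The median log2 ratio of genes was -0.50 with DESeq2 scaling, -0.55 with TMM, -1.25 with background scaling, -0.38 without a distance limit, -0.57 with a minimum of 200, -0.59 with a pseudocount of 5, -0.52 over gene spans, and -0.63 with the minimum set on the vehicle and combination libraries, chosen after seeing the data.

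Requiring overlap of 50% of the peak, the shared peaks were 52.1% of the GSK-126 list and 43.4% of the fenretinide list, and 65.8% and 48.4% with scores of at least 20. Vehicle was nearer to fenretinide for 99.1% of called genes, and for 98.6% (DESeq2), 98.7% (TMM), 99.6% (background), 99.4% (no distance limit), 98.3% (minimum of 20), 99.8% (minimum of 200), 97.4% (no minimum), 98.1% (ratio of 1.5) and 99.9% (ratio of 4). The combination was nearer to GSK-126 for 93.1%, and in the same order for 94.7%, 95.01%, 98.4%, 96.1%, 90.4%, 97.7%, 88.6%, 92.1% and 95.2%.

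Medians that turned were those of serpins (-0.05, to 0.0755 with DESeq2, 0.0246 with TMM, 0.0612 without a distance limit and 0.0212 with a minimum of 200), other cadherins (to -0.61 with background scaling and -0.17 over gene spans), mesenchymal genes (to 0.0504 within 2 kb), intervals (to 0.0171 with DESeq2), intervals 50 to 200 kb from a gene start (to 0.0529 with DESeq2 and 0.00205 with TMM) and 200 kb to 1 Mb away (to -0.0398 with background scaling), windows with 1 to 2 genes (to -0.35 with background scaling) and windows with 3 to 5 genes (to 0.0017 with DESeq2). Genes that turned were DCN (0.23), IL20RB (-0.25), SERPINE2 (0.23) and TNFSF10 (0.40) without a distance limit, and ERBB3 (-0.0306) and POSTN (0.14) over gene spans. Those settings take in intervals farther from the gene start, and the cause was otherwise not tested.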

Other observations

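Some differences between the libraries lay in genes outside the groups described above, and they are given as values. EPPK1, which encodes the cytolinker epiplakin, was 1 of 54 genes called higher with GSK-126, of 1644, at which the combination lay nearer to fenretinide than to GSK-126. The genes of this paragraph were chosen after their values were seen. It held 312 fragments with GSK-126 and 139 with fenretinide, against 200 with vehicle and 159 with both compounds, a ratio of 2.63 [2.15 to 3.24]. KLF1, the erythroid transcription factor, was another, with 160, 58, 63 and 87 fragments and a ratio of 3.23 [2.38 to 4.44]. Among genes called lower, RNF220, a ubiquitin ligase, held 103, 379, 414 and 179 fragments, a ratio of 0.318 [0.254 to 0.397]. PNPT1, a mitochondrial polynucleotide phosphorylase, held 49, 192, 208 and 88, a ratio of 0.299 [0.214 to 0.411]. At KLF1, RNF220 and PNPT1 the combination lay about midway between the 2 single-compound libraries on the log2 scale. Nearness there was read from the values alone, without regard to counting error.

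Imprinted genes had shares near those of all genes. Of 27 tested, 8 (29.6%) were lower with GSK-126 and 2 (7.41%) higher, against 30.4% and 11.2% over all genes, with a median log2 ratio of -0.54. MEST held 83 fragments with GSK-126 and 16 with fenretinide, against 17 with vehicle and 48 with both compounds, a ratio of 6.08 [3.53 to 11.1]. DLK1 held 145, 438, 559 and 170, a ratio of 0.388 [0.319 to 0.469]. The alleles were not separated in these counts.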
